A study of Mus musculus with 6 samples.

Results

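The Rab GTPases are small membrane-bound switches that, when loaded with GTP, recruit effectors which move, tether and fuse vesicles. Each member marks particular compartments, so the family can be read as a map of secretion, endocytosis, recycling and transport through the Golgi apparatus. In mouse Treg cells (regulatory T cells, which hold other immune cells in check) Rab27a is known for the release of exosomes, and inhibitory receptors such as CTLA-4 cycle between endosomes and the cell surface. Here the family was taken as every gene in the deposited table whose symbol is Rab, a number and at most 1 letter, which gave 56 of 15442 genes. Of these, 9 were placed among the secretory members, 24 among the endocytic members (early endosome, recycling, and late endosome and lysosome together) and the others in delivery to the plasma membrane, the endoplasmic reticulum (ER) and Golgi apparatus, or none of these.

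Gene expression had been measured by SMART-Seq2 RNA sequencing of cells sorted for green fluorescence from the livers of Foxp3-GFP reporter mice, in which the fluorescent protein reports Foxp3, the transcription factor of Treg cells. There were 3 libraries from a mouse model of autoimmune hepatitis (AIH, an immune attack on the liver) and 3 from control mice, and the reporter is common to both groups. How the disease was induced, the strain, the age and the number of animals or cells per library are not stated in the sources used. Whether separate animals gave the libraries is not stated either, so p-values measure the spread between these samples only, which may be technical. The study set AIH beside control to learn how hepatic Treg cells take part in the disease.

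The libraries held between 17780509 and 24572388 expected counts, of which the Rab genes took 0.235 to 0.288%. Foxp3 itself stood at 0.267, 4.13 and 1.56 CPM (counts scaled by library size) in the AIH libraries and at 16.8, 14.1 and 38.3 CPM in the controls, each set listed here and below in the order of replicates 1, 2 and 3. It was therefore lower in every AIH library than in every control, which goes against the sort, and these are called the libraries labelled AIH where a direction is given. Other Treg genes did not share this direction. Tnfrsf18, the receptor GITR, was at 1503, 2301 and 1567 CPM in the libraries labelled AIH, against 701, 428 and 291 CPM in the controls (log2 fold change 1.92, adjusted p = 0.193 in edgeR's quasi-likelihood test), and Ctla4, Ikzf2 and Il2ra overlapped between the groups at 0.43, 0.49 and −0.04. Summed over 5 Treg genes the libraries labelled AIH held 1533, 2948 and 1746 TPM (counts scaled by gene length and by library) and the controls 1053, 779 and 608 TPM. Over 6 T cell genes the sums were 4445, 6215 and 4960 TPM against 3330, 3333 and 2351 TPM. Both sums were thus higher in every library labelled AIH. Tnfrsf18 made most of the Treg sum, at 1286, 2486 and 1469 TPM against 733, 480 and 347 TPM. Cd3d and Cd3g made most of the T cell sum. Of the 6 T cell genes, 5 had a positive and 1, Cd4, a negative log2 fold change. Cd4 overlapped, at 49.3, 93.3 and 28.3 CPM against 109, 82.0 and 80.7 CPM (log2 fold change −0.67). Over 5 markers of CD8 T and NK cells the sums were 241, 77.8 and 189 TPM against 92.0, 75.9 and 30.6 TPM, which overlapped. Cd8a alone was higher in every library labelled AIH, at 119, 46.8 and 132 CPM against 9.99, 15.3 and 26.3 CPM. Summed over 14 macrophage markers the libraries labelled AIH stood at 258, 1914 and 2183 TPM and the controls at 5955, 3357 and 14251 TPM, with 12 of the 14 genes below all 3 controls in each library labelled AIH, as were 8.87% of all genes tested. Of these markers, Cd14 was at 0 CPM in AIH 1 and Timd4 at 0.0533, 0.182 and 9.89 CPM in the libraries labelled AIH. Summed over 5 B cell markers they stood at 53.2, 32.4 and 61.8 TPM against 219, 347 and 136 TPM in the controls. Of the 4 B cell markers tested, Cd79b alone did not overlap. Over 6 hepatocyte genes the sums were 507, 1377 and 2290 TPM against 2418, 801 and 2777 TPM. Over 5 dendritic cell genes they were 29.1, 46.0 and 5.01 TPM against 66.9, 77.6 and 38.5 TPM. The hepatocyte and the dendritic sums overlapped between the groups. In such bulk samples fewer cells of a type and less RNA per cell cannot be told apart, and the part of these other cells in any Rab value below was not tested.

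No Rab gene passed the test between the groups in the reported fit, and 1, Rab26, did so in another. Of the 56 members, 44 had enough counts to be tested, and edgeR's quasi-likelihood test called none of them at 0.05 once p-values were adjusted (Benjamini-Hochberg) over all 11140 genes tested, where 0.0898% of all genes were called, 0.0808% as higher and 0.00898% as lower. None of the 44 reached an unadjusted p under 0.05 either, against 8.27% of all genes tested (4.42% higher, 3.85% lower). On the same genes DESeq2 and limma-voom also called 0 members after adjustment, with 4 and 3 at an unadjusted p under 0.05. DESeq2 without the filter on low counts, a setting added after the data were seen, called 1 of 52 members, Rab26, as higher in the libraries labelled AIH, where it called 2.34% of all genes. The members were 20 with a positive and 24 with a negative log2 fold change; their median was −0.03 beside −0.04 over all genes tested. In simulated counts of the same size the edgeR test recovered 16.8% of changes of 2 log2 units and 50.5% of changes of 4 log2 units. A missed threshold does not show that levels were equal, and the intervals below give the range of differences these libraries allow for each gene.

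**Figure D1:**
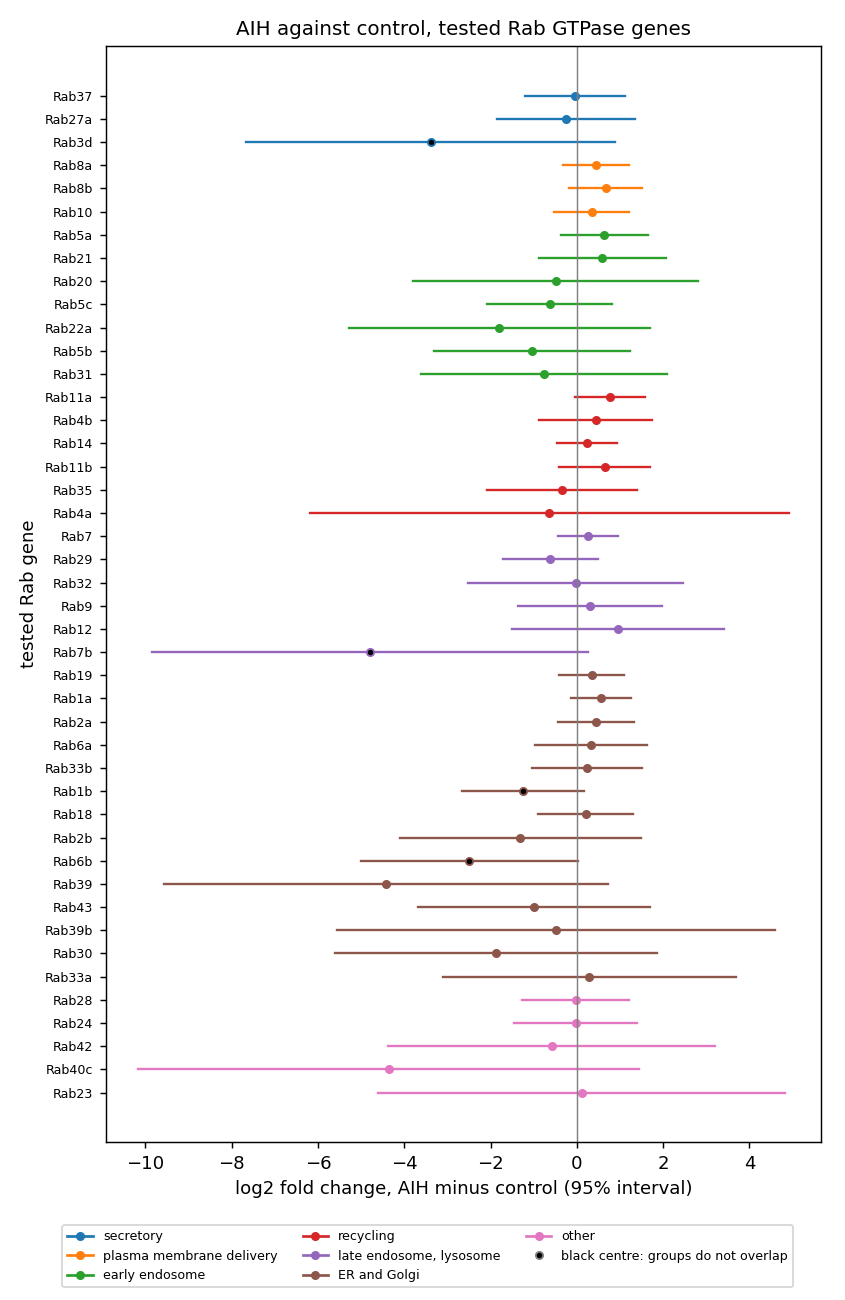
The horizontal axis gives the log2 fold change of the libraries labelled AIH against control with its approximate 95% interval, and the vertical axis lists the 44 tested Rab genes, coloured by role. Every interval includes 0; the 4 points with a black centre (Rab3d, Rab7b, Rab1b and Rab6b) are genes whose groups did not overlap, all lower in AIH.

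The levels of the members, which can be compared between genes only per length, are given first. Rab11a, which drives slow recycling from endosomes to the surface, had the highest mean level at 108 ± 44.7 TPM (SD over the 6 libraries of both groups). Rab4b, of fast recycling, followed at 69.7 ± 40.7 TPM, then Rab7, of late endosomes and lysosomes, at 67.9 ± 14.0 TPM. Rab29, a lysosomal and Golgi member, stood at 67.85 ± 33.2 TPM and Rab8a, which delivers vesicles to the plasma membrane, at 64.6 ± 18.7 TPM. The spreads of these 5 genes overlap, so their order is not fixed by these data; together they made 35.5% of the mean summed Rab TPM. The leading 22 members made 90.3%. The secretory members were lower, with Rab37 in place 18 at 23.5 ± 9.14 TPM and Rab27a in place 26 at 9.42 ± 5.71 TPM. Summed over the family the libraries labelled AIH held 1091 ± 261 TPM and the controls 1043 ± 57.3 TPM (SD, n = 3 per group).

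**Figure D2:**
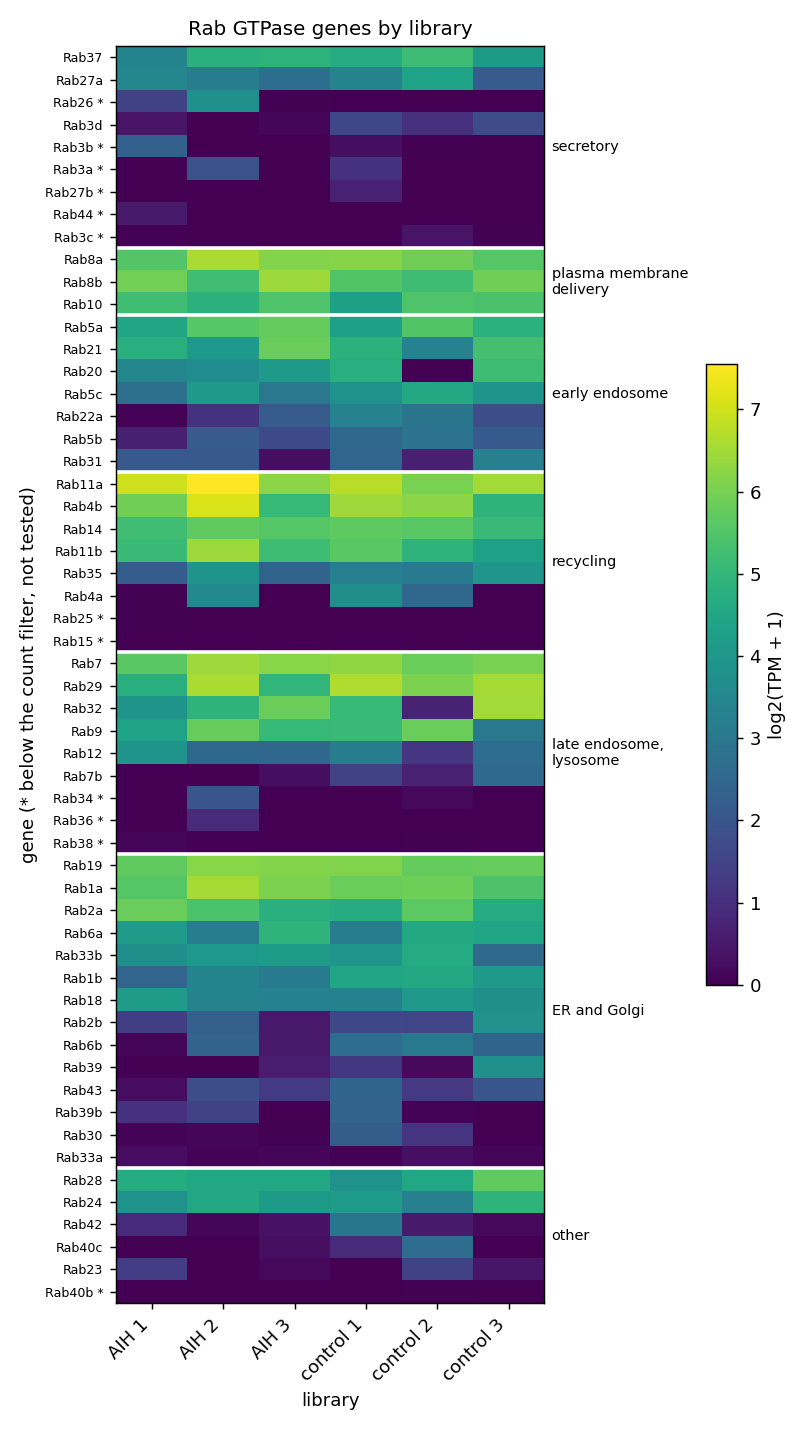
Colour gives log2(TPM + 1) of each of the 56 Rab genes (rows, grouped by role and ordered by mean TPM) in each of the 6 libraries (columns); an asterisk marks the 12 genes below the count filter. Rab11a, Rab4b, Rab7, Rab29 and Rab8a form the bright rows, the secretory block is dark except for Rab37 and Rab27a, and several low genes are bright in single libraries.

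Several members had many counts in some libraries and none or 1 in others. Of 46 members that reached 100 counts in at least 1 library, 11 had at most 1 count in another, a share of 23.9%, and the share was 23.9% of the 11550 genes of the whole table that reached 100 counts. Among the 11, Rab7b, Rab3d and Rab26 did not overlap between the groups, Rab26 by 1 count in AIH 3 against 0 in every control. The share without overlap among such genes of the whole table is not given here, so these names are no result about the family. Rab4a, the sister of Rab4b, was counted 1, 336 and 0 times in the libraries labelled AIH, against 438, 119 and 0 times in the controls. Both groups thus held a library with many counts and one with none. Rab20, a member known from macrophage phagosomes, was counted 0 times in Control 2 and 936 and 1152 times in Control 1 and Control 3, with 326, 346 and 513 counts in the libraries labelled AIH.

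Among the secretory members, the group that regulated secretion depends on, Rab27a and Rab37 were the ones with counts in every library. Rab27a, which docks secretory lysosomes and exosome-bearing endosomes at the plasma membrane, was at 40.3, 25.3 and 20.4 CPM in the libraries labelled AIH, against 31.2, 60.9 and 10.1 CPM in the controls. The controls enclose all 3 libraries labelled AIH, with both the highest and the lowest value in a control. Its log2 fold change was −0.25 (SE 0.71, 95% interval −1.86 to 1.35, adjusted p = 0.970 in edgeR's quasi-likelihood test). The sign rested on single libraries, and was positive at 0.47 without Control 2. Rab37, a Rab of secretory granules, was at 26.8, 59.9 and 72.0 CPM in the libraries labelled AIH, against 56.4, 75.1 and 32.9 CPM in the controls. The groups overlapped over most of their range, and the log2 fold change was −0.05 (SE 0.52, 95% interval −1.21 to 1.11), turning to 0.27 without AIH 1 and 0.25 without Control 2.

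The Rab3 genes, which prime secretory vesicles in neurons and gland cells, were close to the limit of detection. Rab3d was at 1.6, 0 and 0.438 CPM in the libraries labelled AIH, against 8.62, 4.13 and 8.68 CPM in the controls. Every library labelled AIH lay below every control, but the level was low, with at most 30 counts in AIH. The log2 fold change of −3.39 (SE 1.91, 95% interval −7.67 to 0.90) had an adjusted p of 0.711 in edgeR's quasi-likelihood test. Rab3d passed the count filter only through the controls, so the lack of overlap is no separate support for a difference. Rab3a, Rab3b and Rab3c did not pass the filter on low counts: Rab3a was counted 82 times in AIH 2 and 40 times in Control 1 and 0 times elsewhere, Rab3b 329 times in AIH 1 and at most 20 times elsewhere, and Rab3c at most 55.6 times in any library. Rab27b, the close relative of Rab27a, was counted 118 times in Control 1 and at most 3.09 times in each of the others. Rab26, a Rab of secretory granules, was also below the filter, with 57, 391 and 1 counts in the libraries labelled AIH, against 0 in every control. Under counting error alone, the highest limit that 0 counts allow in a control was 3 counts (0.155 CPM). Against it, the mean of Rab26 in the libraries labelled AIH, 6.94 CPM, was 44.8-fold higher. This value rested on AIH 2, without which it was 9.97-fold, and the 1 count of AIH 3 was below the 3 counts used as the limit. It is no lower bound, since replicates differed by more than counting error, as the counts of Rab20 show. Rab26 was tested in the fits without the filter, where its adjusted p was 0.394 in edgeR's quasi-likelihood test and 0.00866 in DESeq2's Wald test. DESeq2's adjusted p was 0.399 without AIH 2, which ended the call, and 0.000697 to 0.0220 with any other library left out. Rab44 was counted 28 times in AIH 1 and 0 times in the other libraries.

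Set side by side, the secretory and the endocytic sums both varied as much within as between the groups. The summed level of the 9 secretory genes was 26.3, 50.5 and 34.1 TPM in the libraries labelled AIH, against 38.1, 56.6 and 22.3 TPM in the controls. The summed level of the 24 endocytic genes was 448, 861 and 529 TPM against 669, 497 and 578 TPM. Both sums overlapped between the groups. The secretory sum was 5.88, 5.87 and 6.44% of the endocytic sum in the libraries labelled AIH, against 5.70, 11.4 and 3.87% in the controls, so the controls enclosed the AIH values and Control 2 and Control 3 marked the ends. Over the tested members the median log2 fold change was −0.25 for 3 secretory and −0.03 for 19 endocytic genes, and 0 were called in either group.

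**Figure D3:**
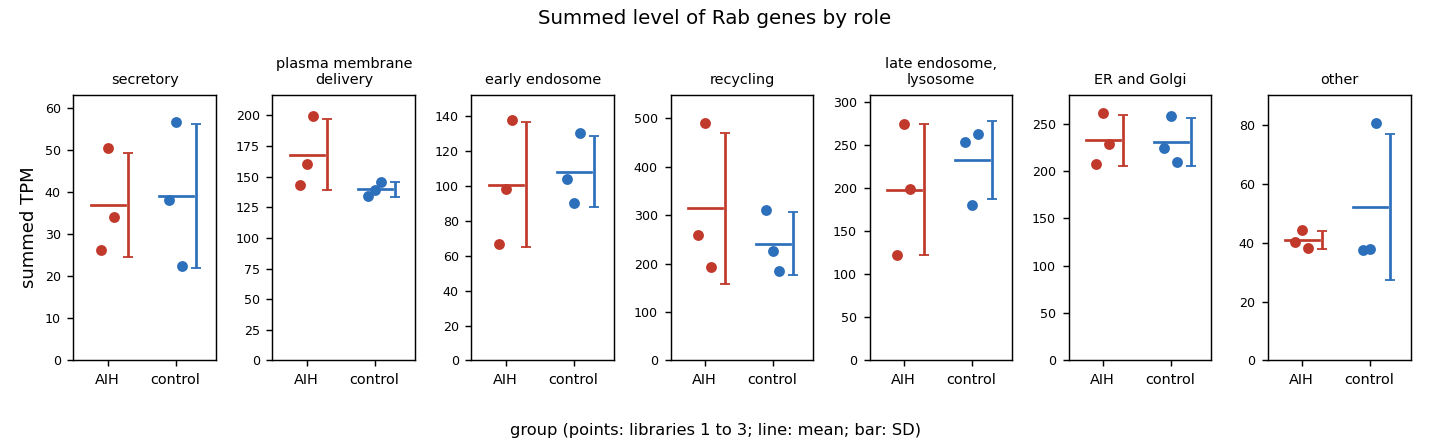
Each panel plots the summed TPM of the Rab genes of one role (vertical axis, from 0) for the 3 libraries labelled AIH and the 3 controls (points), with the group mean (line) and SD (bar). The groups overlap in every panel, and the highest recycling sum, 489 TPM, belongs to AIH 2.

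The early endosomal Rab5 genes showed opposite signs. Rab5a, which with its relatives governs fusion of incoming vesicles, was at 63.5, 114 and 147 CPM in the libraries labelled AIH, against 45.5, 103 and 59.0 CPM in the controls. Rab5b was at 2.51, 11.6 and 8.62 CPM against 16.5, 19.9 and 10.1 CPM, and Rab5c at 14.3, 30.2 and 15.3 CPM against 26.4, 41.9 and 24.1 CPM. In each of the 3 genes the groups overlapped. The log2 fold changes were 0.64 for Rab5a (SE 0.45), −1.03 for Rab5b (SE 1.01) and −0.63 for Rab5c (SE 0.64), none of them called. The other early endosomal genes (Rab20, Rab21, Rab22a and Rab31) had log2 fold changes from −1.79 for Rab22a to 0.59 for Rab21.

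The recycling members held Rab11a, the gene with the highest mean TPM, and its relatives. Rab8b in AIH 3, Rab4b and Rab29 in Control 2, and Rab29 in Control 3 had a higher TPM than Rab11a. Rab11a was at 379, 444 and 201 CPM in the libraries labelled AIH, against 262, 146 and 192 CPM in the controls. Only AIH 3 lay within the range of the controls, and the log2 fold change of 0.77 (SE 0.36, 95% interval −0.04 to 1.58) had an adjusted p of 0.635 in edgeR's quasi-likelihood test. It stayed positive under all 15 alternative settings, from 0.53 to 1.03. Rab11b, a near relative, was at 84.5, 188 and 85.7 CPM against 117, 62.8 and 48.9 CPM, and its log2 fold change of 0.64 (SE 0.47) dropped to 0.16 without AIH 2. Rab4b was at 80.4, 151 and 40.1 CPM against 95.5, 76.9 and 28.3 CPM. Its log2 fold change of 0.43 (SE 0.58) turned to −0.16 without AIH 2, and that of Rab4a, −0.64 (SE 2.47), to 0.73 without Control 1. Rab14 and Rab35 had log2 fold changes of 0.24 and −0.33. Rab15 and Rab25, known mainly from neurons and epithelia, were each counted once in a single library.

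On the late endosomal side, Rab7, the switch that matures endosomes and brings them to lysosomes, was at 126, 182 and 175 CPM in the libraries labelled AIH, against 169, 115 and 120 CPM in the controls. The groups overlapped, and the log2 fold change of 0.26 had a narrow interval for this family (SE 0.31, 95% interval −0.44 to 0.96). Rab29 was at 35.2, 102 and 38.5 CPM against 111, 67.8 and 90.2 CPM, with a log2 fold change of −0.61 (SE 0.49). Rab7b, a late endosomal member known from macrophage receptor trafficking, was counted 0, 0 and 23 times in the libraries labelled AIH, against 213, 52 and 530 times in the controls. Every library labelled AIH lay below every control, and the log2 fold change of −4.79 (SE 2.25, 95% interval −9.85 to 0.27) had an adjusted p of 0.636 in edgeR's quasi-likelihood test. The sign held in the 14 alternative settings in which it could be tested, from −10.9 without AIH 3, where both remaining libraries labelled AIH were at 0, to −3.30 without AIH 1 and Control 3 together. Its lowest adjusted p with those settings was 0.174, with DESeq2's Wald test and no filter. That test called it without AIH 3, its highest library labelled AIH (adjusted p = 0.000119). Rab7b passed the count filter only through the controls. Neither the lack of overlap nor the steady sign is therefore separate support for a difference. The macrophage marker sums were 258, 1914 and 2183 TPM in the libraries labelled AIH and 5955, 3357 and 14251 TPM in the controls. AIH 1 and AIH 2 both had 0 Rab7b counts at unlike marker sums, whereas the controls ranked alike in Rab7b counts and in marker sum. A link between Rab7b and these markers was not tested. Rab32, another phagosome and lysosome member, was counted 678, 1322 and 2789 times in the libraries labelled AIH, against 1697, 26 and 4370 times in the controls, with a log2 fold change of −0.03 (SE 1.11).

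Among the members of plasma membrane delivery, Rab8b was at 387, 186 and 503 CPM in the libraries labelled AIH, against 233, 175 and 269 CPM in the controls. Rab8a was at 116, 193 and 161 CPM against 148, 115 and 84.9 CPM. The groups overlapped for both, with log2 fold changes of 0.67 (SE 0.38) and 0.44 (SE 0.34); Rab10, which carries transporters to the surface, had 0.34 (SE 0.39).

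The members of the ER and Golgi held the gene with the smallest p, Rab6b, and the Rab1 pair. Rab1a, which moves vesicles from the ER to the Golgi, was at 169, 270 and 220 CPM in the libraries labelled AIH, against 171, 163 and 113 CPM in the controls. Rab1b, its paralog at the same step, was at 10.3, 17.4 and 16.4 CPM against 39.2, 39.4 and 26.1 CPM. Rab1a overlapped between the groups, whereas Rab1b was below all 3 controls in each library labelled AIH. The log2 fold changes were 0.56 for Rab1a (SE 0.31, 95% interval −0.14 to 1.25) and −1.25 for Rab1b (SE 0.63, 95% interval −2.65 to 0.16), with adjusted p-values of 0.703 and 0.671 in edgeR's quasi-likelihood test. Rab6b, whose relative Rab6a serves retrograde transport through the Golgi, was at 0.64, 11.6 and 2.39 CPM against 27.5, 35.1 and 19.8 CPM. The groups did not overlap, and the log2 fold change of −2.49 (SE 1.12, 95% interval −5.00 to 0.02) had the smallest p among the 44 members, 0.0515 before and 0.607 after adjustment by edgeR. It was −4.17 without AIH 2, the highest library labelled AIH, and −1.98 without AIH 1. DESeq2's Wald test with no filter called Rab6b without AIH 2 (adjusted p = 0.000180). Rab6a was at 70.1, 27.4 and 111 CPM against 28.6, 73.8 and 63.2 CPM. Rab39 was counted 1, 0 and 37 times in the libraries labelled AIH, against 104, 8 and 929 times in the controls. Most of its control counts came from Control 3, and the log2 fold change of −4.42 (SE 2.29) was −1.88 without Control 3 and −1.33 without AIH 1 and Control 3 together. Rab40c, from outside these roles, was counted 1, 0 and 14 times in the libraries labelled AIH, against 57, 255 and 0 times in the controls, with a log2 fold change of −4.36 (SE 2.58). The groups did not overlap for 4 of the 44 members (9.09%), all lower in the libraries labelled AIH. Of all genes tested, 17.3% did not overlap, 8.87% lower and 8.46% higher in this way. Among the 4 members, Rab3d and Rab7b passed the count filter only through the controls.

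The steadiest members over the 6 libraries were Rab14, Rab19 and Rab7, with coefficients of variation of their CPM of 0.191, 0.200 and 0.207. Rab19 was at 87.0, 102 and 112 CPM in the libraries labelled AIH, against 99.4, 71.3 and 67.1 CPM in the controls, which overlapped at a log2 fold change of 0.34 (SE 0.34). Rab2a, which acts between the ER and the Golgi, was at 153, 89.5 and 80.8 CPM against 57.5, 102 and 76.8 CPM, and its paralog Rab2b at 5.81, 11.2 and 1.41 CPM against 6.17, 5.37 and 33.9 CPM. Most Rab2b counts thus came from Control 3. Rab9, which returns cargo from late endosomes to the Golgi, stood at a log2 fold change of 0.32 (SE 0.74). The highest value of the 44 was that of Rab12, of lysosomal delivery, at 0.96 (SE 1.09). Among members outside these roles, Rab28, known from cilia, and Rab24, known from autophagy, both had −0.03 (SE 0.55 and 0.64). Rab23, known as a brake on Hedgehog signalling, was counted 166, 1 and 13 times in the libraries labelled AIH, against 1, 142 and 37 times in the controls, so each group had a library near 0 and one above 100 counts.

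Because paralogs often serve the same step, each pair of tested members with the same number was also compared within libraries, as the share of the second gene in the counts of both; scaling between libraries cancels in such a share. This was chosen after the values above were seen. Rab1b made 5.73, 6.05 and 6.95% of the Rab1a and Rab1b counts in the libraries labelled AIH, against 18.6, 19.5 and 18.7% in the controls. The 95% Wilson intervals, which cover counting error only, ran from 4.99 to 7.70% over the libraries labelled AIH and from 17.5 to 20.8% over the controls. The libraries of each group thus lay within a narrow band, at 6.24 ± 0.637% and 19.0 ± 0.487% (SD, n = 3 per group), a difference of −12.7 percentage points. The exact two-sided permutation test gave p = 0.1, the smallest that 3 against 3 samples allow, and 0.3 after Benjamini-Hochberg adjustment over 12 pairs. The difference was between −13.1 and −12.4 percentage points with any 1 library left out. All counts of Rab1a and Rab1b were whole numbers, as in 46 of the 56 members. How the authors' counting treated reads that match both paralogs is not stated in the sources used, so the height of the share is uncertain.

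Of 12 such pairs, 4 separated the groups, each with a lower share of the second gene in the libraries labelled AIH. Of 1010 pairs of tested genes with symbols of that form, 14.4% separated the groups in either direction and 7.13% with a lower share in AIH; which gene stands second follows the symbols' order. The 4 pairs are not independent, since Rab5a stands in 2 of them. Rab5b made 3.80, 9.23 and 5.54% of the Rab5a and Rab5b counts in the libraries labelled AIH, against 26.6, 16.2 and 14.6% in the controls. Rab5c made 18.4, 21.0 and 9.43% of the Rab5a and Rab5c counts against 36.7, 28.8 and 29.0%. In both the controls lay higher and scattered more than for the Rab1 genes. Rab7b made at most 0.635% of the Rab7 and Rab7b counts in AIH and 4.83, 2.29 and 14.4% in the controls. Since Rab7b passed the count filter only through the controls, its pair is no separate support for a difference. In the other 8 pairs the groups overlapped, among them Rab6b, with 0.905, 29.8 and 2.11% against 49.0, 32.2 and 23.9%, where AIH 2 reached the controls, and Rab11b, with 18.2, 29.7 and 29.9% against 30.9, 30.1 and 20.3%. No adjusted p over the 12 pairs was below 0.3 by the exact permutation test.

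**Figure D4:**
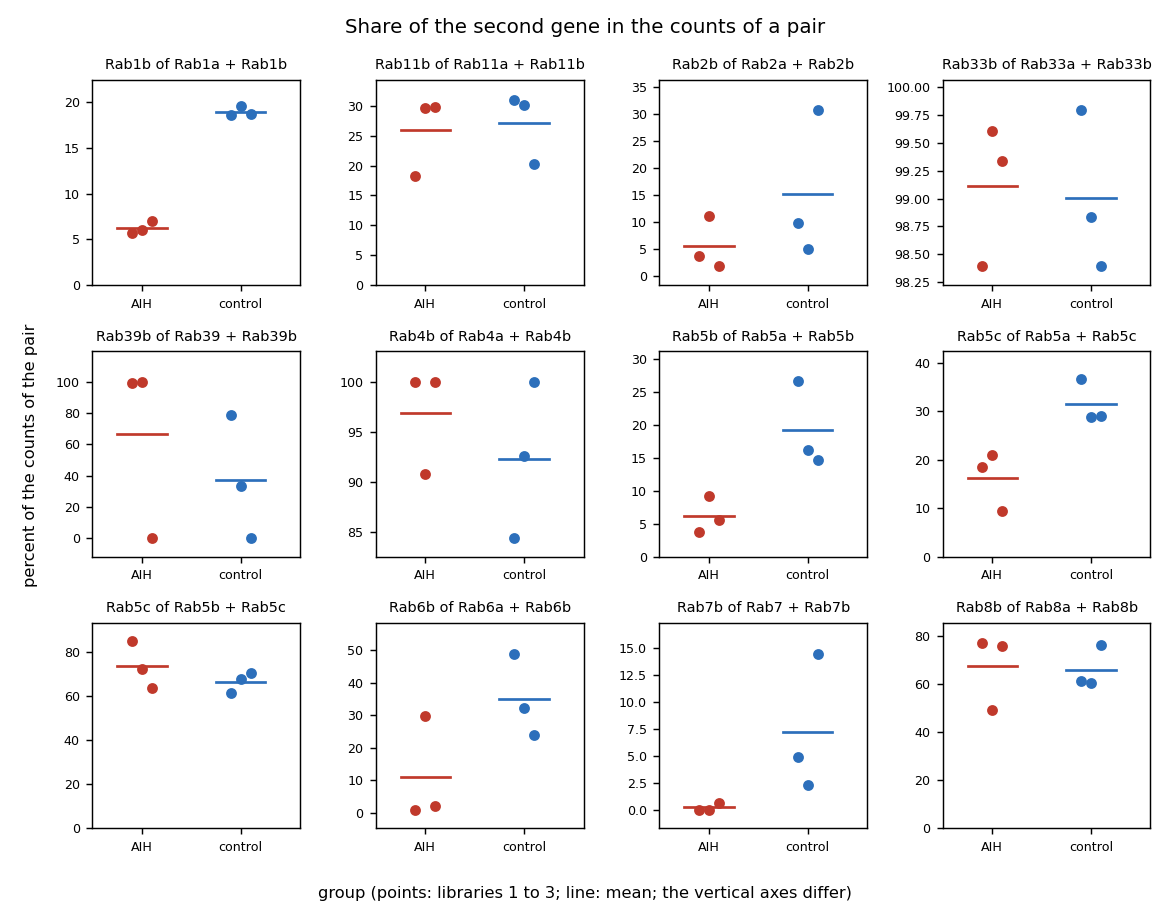
Each panel plots, for one pair of Rab genes with the same number, the share of the second gene in the counts of the pair (vertical axis in percent; axes differ between panels and start above 0 for Rab33b and Rab4b) for the 3 libraries labelled AIH and the 3 controls, with the mean as a line. In the Rab1b panel the groups lie near 6.24% and 19.0%; Rab5b, Rab5c of Rab5a and Rab5c, and Rab7b are also lower in every library labelled AIH.

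The 250 bases before the start of the Rab1 and Rab5 genes are shown because these relatives parted within libraries; they are from RefSeq on GRCm38.p6, a build other than the one named for the counts, 5′ to 3′ on the strand of the gene. Capitals mark matches on either strand to short motifs known from mouse promoters, and no matches overlap here. The motif GGGCGG is the core of the box bound by Sp factors and is called the GC box. The motif CCAAT is named after its own letters and is bound by the factor NF-Y. The motif CACGTG is the form of the E-box that Myc and its relatives bind. The motif TATAAA stands for the TATA box of focused promoters.
Rab1a (chr11:20201162-20201411, plus strand): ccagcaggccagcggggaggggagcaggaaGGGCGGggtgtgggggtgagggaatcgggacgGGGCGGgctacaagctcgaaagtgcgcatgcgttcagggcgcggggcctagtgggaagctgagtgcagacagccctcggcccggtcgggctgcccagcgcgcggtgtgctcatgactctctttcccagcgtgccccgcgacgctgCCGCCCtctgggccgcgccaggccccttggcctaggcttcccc
Rab1b (chr19:5106997-5107246, minus strand): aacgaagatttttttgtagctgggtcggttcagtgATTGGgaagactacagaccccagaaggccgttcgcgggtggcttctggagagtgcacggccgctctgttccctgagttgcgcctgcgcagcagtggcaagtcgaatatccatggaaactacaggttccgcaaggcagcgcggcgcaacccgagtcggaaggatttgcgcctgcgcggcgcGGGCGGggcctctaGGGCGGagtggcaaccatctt
Rab5a (chr17:53478984-53479233, plus strand): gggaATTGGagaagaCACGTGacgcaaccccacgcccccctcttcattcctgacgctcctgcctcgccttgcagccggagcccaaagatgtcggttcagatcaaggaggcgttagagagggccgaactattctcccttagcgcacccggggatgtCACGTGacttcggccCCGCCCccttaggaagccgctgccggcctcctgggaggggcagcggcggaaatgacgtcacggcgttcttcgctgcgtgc
Rab5b (chr10:128696269-128696518, minus strand): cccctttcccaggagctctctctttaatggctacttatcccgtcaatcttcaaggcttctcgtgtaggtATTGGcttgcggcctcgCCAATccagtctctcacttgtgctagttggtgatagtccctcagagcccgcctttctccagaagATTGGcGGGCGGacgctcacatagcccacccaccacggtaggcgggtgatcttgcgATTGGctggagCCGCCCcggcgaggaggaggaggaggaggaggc
Rab5c (chr11:100738216-100738465, minus strand): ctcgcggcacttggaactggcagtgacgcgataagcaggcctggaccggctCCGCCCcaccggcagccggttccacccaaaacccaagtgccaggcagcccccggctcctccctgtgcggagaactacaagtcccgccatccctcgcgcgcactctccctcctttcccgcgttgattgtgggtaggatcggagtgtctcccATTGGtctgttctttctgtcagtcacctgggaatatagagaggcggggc
All 5 windows are rich in G and C, at 72.4% for Rab1a, 60.8% for Rab1b, 64% for Rab5a, 59.2% for Rab5b and 63.2% for Rab5c, where the median of 32851 promoters of the same length is 52.4%. Rab1a holds 3 GC boxes and no CCAAT box, and Rab1b 2 GC boxes and 1 CCAAT box. Rab5a is the one of the 5 with E-boxes, 2 of them, and Rab5b holds 4 CCAAT boxes. GC boxes occur in 32.7% of all promoters, CCAAT boxes in 33.8%, E-boxes in 6.02% and TATA boxes in 12.4%. Over the 56 promoters listed for the 45 members that matched the table, GC boxes occur in 67.9%, CCAAT boxes in 39.3%, E-boxes in 8.93% and TATA boxes in 7.14%. A match describes letters in this window and not a bound site.

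No transcript of a Rab gene passed the test either. It listed 99 transcripts of the 56 members, of which 58 were tested and 0 were called after adjustment (edgeR's quasi-likelihood test, limit 0.05), as were 0% of all 17999 transcripts tested. In simulated transcript counts this test recovered 0% of changes of 2 log2 units and 9.64% of changes of 4 log2 units. At an unadjusted p under 0.05 there was 1, beside 4.16% of all transcripts. It was a predicted RefSeq model of Rab11b with 225, 675 and 1079.5 expected counts in the libraries labelled AIH, against 24.5, 0 and 0 in the controls. It took 14.2, 16.3 and 61.4% of the Rab11b counts in the libraries labelled AIH and at most 0.843% in the controls. This transcript was named for its small p and passed the count filter only through the libraries labelled AIH. The lack of overlap is therefore no separate support for a difference. The usage test for Rab11b, which asks whether its 3 tested transcripts change in proportion, gave an edgeR adjusted p of 1 (0.0284 before adjustment). Of 12 members with at least 2 tested transcripts 0 were called for usage, as were 0% of 3779 genes. Uncertainty in how reads were divided among transcripts is not part of these tests.

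The genes that act on Rab proteins were examined in lists by role. Of the 108 tested, 0 were called after adjustment in edgeR's quasi-likelihood test, where 0.0898% of all genes were. Over all genes tested, 51.9% had a negative log2 fold change. An unadjusted p under 0.05 was reached by 8.27% in that test, and the groups did not overlap for 17.3%. Genes named below have the smallest p of their list, a choice that favours groups without overlap. Escort proteins, prenyl transferase subunits and GDP dissociation inhibitors keep Rab proteins lipid-modified and move them between membranes. Of these 6 genes, 1 had a positive and 5 a negative log2 fold change, and 0 reached an unadjusted p under 0.05. The groups did not overlap for 16.7% of them. Chml, an escort protein gene, was at 0, 0.0454 and 5.31 CPM in the libraries labelled AIH, against 5.36, 12.1 and 18 CPM in the controls. The highest library labelled AIH lay just below the lowest control, at a log2 fold change of −2.72 (SE 2.03). The related Chm had −0.72 (SE 0.93) and Rabggtb, a prenyl transferase subunit, 0.45 (SE 0.49), both with overlapping groups.

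Exchange factors load Rab proteins with GTP, and GTPase-activating proteins end that state. Of 31 tested exchange factor genes, 8 had a positive and 23 a negative log2 fold change. Their median was −0.49 beside −0.04 for all genes tested. An unadjusted p under 0.05 was reached by 3.23% of the 31, and 16.1% did not overlap between the groups. Rin3, an exchange factor for Rab5 proteins, was at 4.0, 21.1 and 7.35 CPM in the libraries labelled AIH, against 25.8, 40.3 and 69.8 CPM in the controls. Every library labelled AIH lay below every control, and the log2 fold change was −2.07 (SE 0.79), with an adjusted p of 0.535 in edgeR's quasi-likelihood test. Dennd4c, of a family of exchange factors for Rab10, was at 48.2, 24.5 and 46.2 CPM against 9.99, 20.1 and 16.9 CPM, above the controls in every library labelled AIH, with a log2 fold change of 1.34 (SE 0.62). Hps1, part of the exchange factor for Rab32 and Rab38, had −3.68 (SE 1.77). Of 30 tested GTPase-activating genes, 10 had a positive and 20 a negative log2 fold change, and their median was −0.11. An unadjusted p under 0.05 was reached by 3.33% of the 30, and 6.67% did not overlap between the groups. Evi5l was at 1.97, 7.49 and 4.14 CPM in the libraries labelled AIH and was counted 0 times in every control. Against the highest limit for 0 counts in a control under counting error alone (3 counts, 0.155 CPM), its mean was 29.3-fold higher. This is no lower bound, since replicates differed by more than counting error. The adjusted p of Evi5l was 0.378 in edgeR's quasi-likelihood test. Evi5l passed the count filter only through the libraries labelled AIH and was named for its small p. Neither value is therefore separate support for a difference. Rab3gap1 and Rabgap1l had log2 fold changes of −0.90 (SE 0.60) and 0.43 (SE 0.33).

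Effectors carry out the work of active Rab proteins. Of 14 tested secretory effector and fusion genes, 7 had a positive and 7 a negative log2 fold change, and their median was 0.01. An unadjusted p under 0.05 was reached by 14.3% of the 14, and 28.6% did not overlap between the groups. Over all genes tested these shares were 8.27% and 17.3%. No test over the list was run. Myo5a, the motor that Rab27a engages through its effectors, was at 8.0, 4.54 and 6.97 CPM in the libraries labelled AIH, against 33.4, 55.2 and 23.2 CPM in the controls. Every library labelled AIH lay below every control, with a log2 fold change of −2.52 (SE 0.73) and an adjusted p of 0.421 in edgeR's quasi-likelihood test. Vamp7, a fusion protein of lysosome exocytosis, lay the other way, at 129, 75.9 and 82.5 CPM against 49.9, 34.2 and 3.86 CPM, with a log2 fold change of 1.71 (SE 0.76). Vamp8 was also above the controls in each library labelled AIH, at 757, 651 and 635 CPM against 538, 429 and 475 CPM, with a log2 fold change of 0.50 (SE 0.24). Their adjusted p-values were 0.602 and 0.635 by the same edgeR test. Of 27 tested endocytic effector genes, 12 had a positive and 15 a negative log2 fold change, and their median was −0.22. An unadjusted p under 0.05 was reached by 3.70% of the 27, and 7.41% did not overlap between the groups. Rilpl2, a Rab8 and Rab10 effector, was kept in this list although those Rab genes stand under plasma membrane delivery here. It was at 98.1, 113 and 66.4 CPM in the libraries labelled AIH, against 38.3, 35.4 and 32.0 CPM in the controls. The groups did not overlap, and the log2 fold change of 1.39 (SE 0.40) had an adjusted p of 0.413 in edgeR's quasi-likelihood test. Vps39, which tethers membranes carrying Rab7, and Plekhm2, an adaptor of lysosome movement, had −1.79 (SE 0.90) and −2.60 (SE 1.69).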

How the data were processed

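RNA of sorted liver cells in 6 libraries (3 AIH, 3 control) was sequenced by SMART-Seq2, per the labels' protocols. The submitters' processing notes name FastQC, STAR, featureCounts and the GRCm39 (mm39) build, with no versions. The authors deposited expected counts and TPM per gene and per transcript; deposited FPKM values and the normalised read counts (a scaled signal, per the file headers, with the scaling not stated) were not used. Between 14.8 and 16.7% of expected counts were not whole, and they were rounded for testing. Genes were tested with edgeR 4.0.16 (quasi-likelihood test, TMM scaling, filterByExpr with a minimum count of 10 and a total of 15) in R 4.3.3, with Benjamini-Hochberg adjustment over all genes tested at 0.05. Standard errors were taken from the F statistic and are rough near 0. CPM uses TMM library sizes. Alternatives used DESeq2 1.42.0 (on the filtered genes, and on all genes with a count), limma 3.58.1 (voom), other scalings and filters, a replicate block, and libraries left out, including AIH 1 and Control 3 together, a setting taken from an earlier analysis. The test was checked on simulated data for 11140 genes. The biological coefficient of variation was 0.948. Members and lists were chosen with earlier results of these data known. Named members were the Rab27, Rab3, Rab37, Rab5, Rab7, Rab4 and Rab11 genes, the 12 with the smallest p, the 5 with the highest mean TPM, and the 3 smallest-p genes of each list; Rab20, Rab26, Rab32, Rab44 and others beyond it were chosen after their values were seen. Pairs and promoters were also chosen after values were seen. Counting intervals cover counting error only, since PCR reads without molecular identifiers are not independent molecules.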

Additional observations from a re-analysis of the deposited data

How the results depend on the processing

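Of 15 alternative settings, 14 called no Rab gene and DESeq2 without a filter, added after the data were seen, called 1, Rab26. With 1 library left out of that fit, it called 1 to 3 members. Rab26 was called except without AIH 2. Rab6b was called without AIH 2 (log2 fold change −4.15), and Rab7b and Rab39 without AIH 3 (−10.2 and −9.09). For Rab6b, Rab7b and Rab39 the library left out was the gene's highest among those labelled AIH. Rab34, with 87 counts in AIH 2 and at most 3 elsewhere, was called without Control 2. These leave-one-out fits were also added. The share of all genes they called is not given here, so these calls have no background to be read against. The fold changes of genes at 0 in a group depend on the fit and are no bounds. There was no Rab transcript called under those run for transcripts. The count at an unadjusted p under 0.05, 0 in the reported fit, was 2 with library totals, 4 without a filter, 1 with at least 10 CPM in 3 libraries, 4 with DESeq2, 6 with DESeq2 without a filter and 3 with limma-voom, and 0 to 4 with 1 library left out. The median log2 fold change of the members, −0.03 as reported, was −0.22 with library totals (where all genes shifted to −0.23), 0.15 without a filter, 0.18 with at least 10 CPM, 0.13 with limma-voom, 0.0845 without AIH 1 and Control 3 together, and −0.0863 to 0.19 with 1 library left out. The sign of Rab27a turned with limma-voom (0.12) and without Control 2, and its value ran from −0.68 to 0.47 with 1 library left out. That of Rab37 turned without AIH 1 (0.27), without Control 2 (0.25) and without AIH 1 and Control 3 together (0.0046), with −0.35 as its lowest value with 1 library left out. Rab4b turned without AIH 2 and ran from −0.16 to 0.79, and Rab4a turned without Control 1 and ran from −7.96 to 0.73. The secretory median ran from −0.16 to 0.85 and the endocytic median from −0.34 to 0.41 with 1 library left out. Replicates share numbers between the groups, and the deviations of same-numbered libraries correlated at 0.0132, 0.00134 and 0.191. Those of libraries with unlike numbers ran from −0.122 to 0.108. With so few libraries, deviations from group means cannot decide whether the numbers mark pairs. The sources used do not state pairs, so the reported fit took none. With a replicate block, 0 members were called, 3 reached an unadjusted p under 0.05, the median was 0.13 and Rab27a stood at 0.0508. The Rab1b difference was −17.7 percentage points with TPM in place of counts and −13.1 to −12.4 with 1 library left out, and 4 to 6 pairs separated the groups; both were added after the data were seen. Over all genes the number called ran from 0 with the replicate block to 180 with DESeq2 on the filtered genes and 337 with DESeq2 without a filter, against 10 as reported, with 3 under library totals, 32 without a filter, 21 with limma-voom and at most 1 with 1 library left out. The causes were not tested. Low members such as Rab3d and Rab7b have intervals several log2 units wide, so differences of that size can be missed at this spread.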
